A study of Mus musculus with 24 samples.

Results

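Each liver of 8 female mice of the B6C3F1 cross was divided into 3 pieces. The comparison here is between the piece kept in formalin for 3 weeks and the piece of the same liver kept in formalin for 18 h, both then embedded in paraffin (FFPE). These 16 libraries, out of 24 in the series, were chosen by their labels and paired by animal. They fall into 4 groups of 4 animals: FFPE 3 weeks with furan, FFPE 3 weeks control, FFPE 18 h with furan and FFPE 18 h control. The furan mice were gavaged daily for 21 days with furan in corn oil, at 8 mg per kg of body weight, and the control mice with the oil alone. Furan is a heterocyclic compound that forms in heated food and injures the rodent liver. Tissue was taken 4 h after the last dose, and the mice were 5 to 6 weeks old when purchased. All 16 pieces were extracted with the same FFPE kit and had RNA integrity numbers between 1.3 and 2.4. The labels give 2 sections of 10 µm per extraction for the 3-week pieces and 1 section for the 18 h pieces, so time in formalin, input, piece of liver and any later handling that differed between the sets cannot be told apart. Each piece gave 1 library, and the animals are the replicates. The third piece, snap frozen and extracted with another kit, is quoted only as a level.

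Formaldehyde adds hydroxymethyl groups to the bases of RNA and joins RNA to protein, and RNA recovered from paraffin blocks is broken into short pieces. Libraries made from total RNA after removal of ribosomal RNA contain messenger RNA and also RNAs without a poly(A) tail, such as small nucleolar RNAs, which guide the chemical modification of ribosomal RNA inside the nucleolus. Hepatocytes, the main cell type of the liver, make most plasma proteins, and their messenger RNAs dominate liver RNA.

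Most of the largest rises after 3 weeks were those of short structured RNAs. H/ACA box small nucleolar RNAs guide pseudouridylation and fold into hairpins separated by a hinge, C/D box RNAs guide ribose methylation, and Rnu11 is the U11 RNA that recognises the 5′ splice site of minor introns. The sequences below come from the GENCODE M21 annotation of GRCm38. These 6 RNAs were among the largest rises, Snora70 only among genes with a mean log2 CPM of at least 6. Not all of the largest rises are shown. Capitals mark the H box in the hinge and the ACA box near the 3′ end of the H/ACA RNAs, and the C and D boxes of the C/D RNAs. The lines give the strand of Snora69 (chrX:37082912-37083042, minus), Snora31 (chr14:75847905-75848034, plus), Snora70 (chrX:74272484-74272620, plus), Snord8 (chr14:52209785-52209894, minus), Snord49b (chr11:62603079-62603150, plus) and Rnu11 (chr4:132270080-132270213, minus).
Snora69: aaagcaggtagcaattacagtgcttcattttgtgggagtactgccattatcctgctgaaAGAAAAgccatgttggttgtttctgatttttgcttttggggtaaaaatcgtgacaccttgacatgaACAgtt
Snora31: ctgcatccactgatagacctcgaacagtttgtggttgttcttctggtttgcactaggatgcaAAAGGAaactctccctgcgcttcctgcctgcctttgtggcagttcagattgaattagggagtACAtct
Snora70: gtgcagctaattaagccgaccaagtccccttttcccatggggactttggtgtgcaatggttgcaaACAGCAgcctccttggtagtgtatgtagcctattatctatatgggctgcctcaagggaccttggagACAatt
Snord8: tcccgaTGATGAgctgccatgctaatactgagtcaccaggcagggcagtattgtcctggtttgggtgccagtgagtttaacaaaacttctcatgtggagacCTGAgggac
Snord49b: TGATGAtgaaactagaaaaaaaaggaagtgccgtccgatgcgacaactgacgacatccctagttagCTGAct
Rnu11: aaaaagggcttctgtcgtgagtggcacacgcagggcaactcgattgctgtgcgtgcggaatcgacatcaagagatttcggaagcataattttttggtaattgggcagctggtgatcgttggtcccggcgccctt
The H/ACA search asked for ACA placed 3 bases from the 3′ end and for ANANNA in the middle stretch of the RNA, on the RNA's own strand. It matched 23 of the 31 H/ACA RNAs tested, and 1.20% of 416 other transcripts of 110 to 150 bases. The C/D search asked for TGATGA in the first 20 bases and CTGA in the last 20, and matched 19 of the 26 C/D RNAs tested, against 0.83% of 1446 other transcripts of 60 to 130 bases.

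The 3-week libraries held 5.56 to 11 M counts and the 18 h libraries 22.9 to 28.1 M. After removal of genes with low counts, 13515 of 24015 genes were tested with edgeR's quasi-likelihood test, with the animal as a block and Benjamini-Hochberg adjustment over all genes tested. Of these, 4911 (36.3%) passed an adjusted p of 0.05, 2208 (16.3%) higher and 2703 (20%) lower after 3 weeks. At least a 1.5-fold difference was estimated for 45.2% of the called genes and at least a 2-fold difference for 614 genes. Of the called genes, 63% moved the same way in all 8 livers, and for 1318 of the 4911 the 8 libraries of 3-week pieces and the 8 libraries of 18 h pieces did not overlap. Overlap was counted among called genes only, so its share over all 13515 genes tested is not given. The share of calls that were higher was 55.6% with scaling by total counts, 50.8% without the animal block, and 69.2% when each library was given an offset fitted to transcript GC content and length (12728 protein-coding genes, of which 3935 were called). With these offsets 2724 genes were higher and 1211 lower. Their median log2 fold change was 0.07, against -0.13 without the offsets. List counts with the offsets below stand beside these all-gene values, not beside 16.3% and 20%. Levels below are CPM, counts divided by the TMM-scaled library size in M, given as the lowest, median and highest of the 8 libraries, and differences are log2 fold changes, 3 weeks over 18 h, with their standard error.

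Most H/ACA small nucleolar RNAs tested were higher after 3 weeks. Of 31, 26 were higher, 0 lower and 5 not called, with a median log2 fold change of 1.803, against -0.12 over all genes. Snora70, which had the smallest p of this list, had 125, 186 and 228 CPM after 3 weeks, against 26.8, 34.7 and 44.9 CPM after 18 h. Its groups did not overlap, and the difference was 2.36 ± 0.08 (edgeR adjusted p = 4.27e-24), a 5.12-fold rise seen in 8 of 8 livers. Snora69 had 24.0, 25.5 and 39.6 CPM after 3 weeks and 1.72, 2.89 and 4.10 CPM after 18 h, a log2 fold change of 3.36 ± 0.19 (edgeR adjusted p = 3.68e-17). Every 3-week library lay above every library of the 18 h pieces, and the median frozen level of Snora69 was 0.0852 CPM. Snora31 had 30.9, 39.6 and 55.8 CPM after 3 weeks and 4.35, 6.00 and 7.52 CPM after 18 h, again with no overlap (2.83 ± 0.15, edgeR adjusted p = 5.26e-18). Snora64, Snora21, Snora28, Snora81 and Snora3 rose by 2.69, 2.68, 2.43, 1.93 and 1.90 on the log2 scale, all without overlap. Snora16a rose by 2.48 ± 0.21 and the low Snora75 by 2.75 ± 0.68, also without overlap.

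Of 69 C/D box RNAs in the table, 8 had no count in the 16 libraries and 26 were tested. Of the 26, 11 were higher, 0 lower and 15 not called, with a median log2 fold change of 1.27. A scarce RNA could pass the low-count filter through its 3-week libraries alone, which favours rises among those tested. Snord8 had 4.15, 13.3 and 16.3 CPM after 3 weeks, against 0.388, 1.23 and 2.27 CPM after 18 h, and rose by 3.34 ± 0.32 without overlap (edgeR adjusted p = 4.72e-11). Snord22, which had the smallest p of the list, had 104.7, 126 and 145 CPM after 3 weeks and 33.8, 45.2 and 62.9 CPM after 18 h (1.42 ± 0.09, edgeR adjusted p = 2.91e-16). Those groups did not overlap either, and those of Snord15b, which rose by 1.01 ± 0.08, were also separate. For Snord49b (2.56 ± 0.38) and Snord104 (1.32 ± 0.15) the lowest 3-week library lay inside the range of the 18 h pieces. Small Cajal body RNAs, which guide modification of spliceosomal RNAs, were higher for 5 of 6, with a median of 0.91. Scarna17 had 7.95, 10.4 and 12.7 CPM after 3 weeks and 1.803, 3.42 and 5.21 CPM after 18 h (1.60 ± 0.30, edgeR adjusted p = 4.66e-05), and Scarna6 and Scarna13 rose by 0.59 and 0.76. Scarna2 rose by 1.06 ± 0.29 and lost its call without the animals of the 2 shallowest libraries (adjusted p = 0.0754). Together these 3 classes took 0.222 ± 0.0286% of counts after 3 weeks and 0.0761 ± 0.0110% after 18 h (SD, n = 8 each). The share was higher in 8 of 8 livers (exact sign-flip permutation test over animals, two-sided, p = 0.00781, the smallest that 8 animals allow).

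Many small nucleolar RNAs are made from introns of host genes. Each of the 49 tested small nucleolar and Cajal body RNAs that lie inside a tested gene was set beside that gene. Among the 49 RNAs, 33 were higher, with a median log2 fold change of 1.54. Among their 39 host genes, 10 were higher and 6 lower, with a median of 0.14, and the small RNA had the larger value in 43 of 49 pairs. Of the 22 RNAs that overlap no annotated exon of their host, 12 were higher (median 1.32), 5 of their 21 hosts were higher and 1 lower (median 0.16), and the small RNA had the larger value in 17 of 22 pairs. Snora69 lies in Rpl39, which rose by 0.77 ± 0.15 (edgeR adjusted p = 8.12e-05), while Snord8 lies in Chd8, which had 98.2 CPM after 3 weeks and 104.7 CPM after 18 h, a log2 fold change of -0.10 ± 0.07 (adjusted p = 0.289). Snora28 lies in Eif5, a translation initiation factor gene that rose by 0.16 ± 0.05. Reads shared by a small RNA and its host cannot be assigned without the counting rules, which are not given in the sources used here. Genes named as small nucleolar RNA hosts were higher for 4 of 11, with a median of 0.58. Gas5, a host of many C/D RNAs, had 78.6, 96.0 and 138 CPM after 3 weeks and 42.7, 47.4 and 60.7 CPM after 18 h, without overlap (0.96 ± 0.08, edgeR adjusted p = 1.03e-12). Snhg8, Snhg3 and Snhg1 rose by 1.04, 1.01 and 0.58 with overlapping groups, and Snhg1 lost its call when animal 3, 41, 42, 43 or 44 was left out and when low counts were kept (adjusted p of 0.0680 to 0.109). In the annotation, exons of Gas5 overlap small nucleolar RNAs such as Snord47. Those of Snhg1, Snhg3 and Snhg8 overlap Snord22, Snora73a and Snora24. Counts of these hosts can therefore include reads of the small RNAs. The uncharacterised transcript 5730408K05Rik, which contains Snora57 in the annotation, rose by 2.78 ± 0.25.

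**Figure D1:**
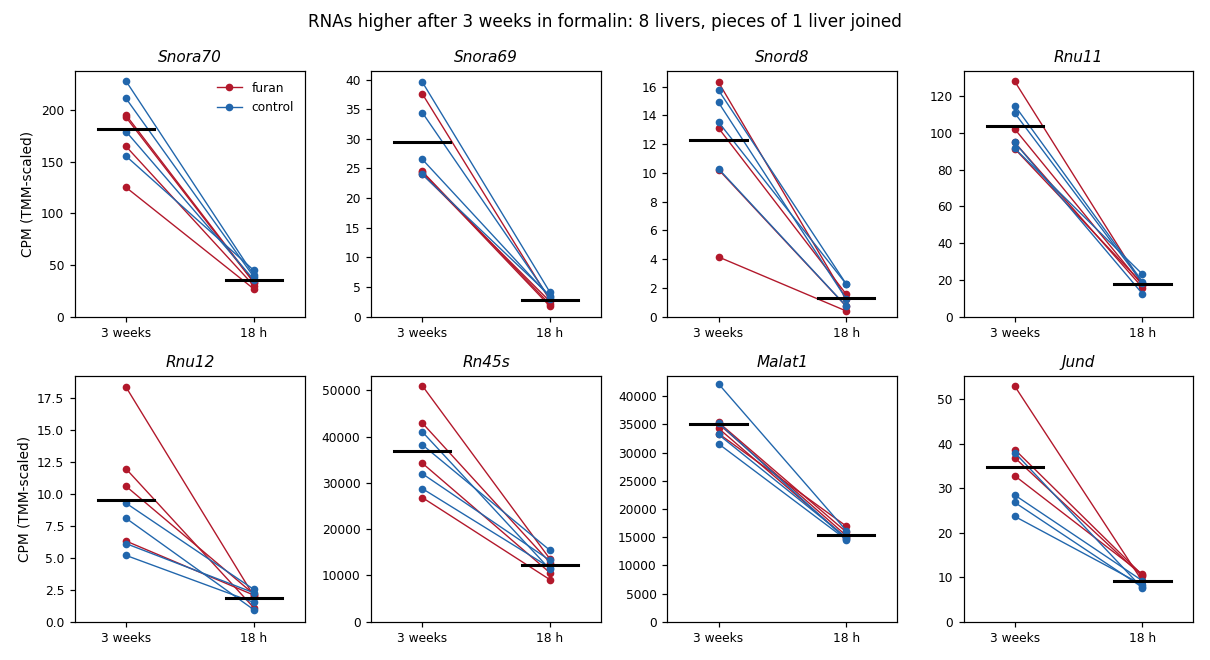
CPM (linear axes from 0, TMM-scaled) of 8 RNAs in pieces kept 3 weeks and 18 h in formalin. Points are libraries, lines join the 2 pieces of a liver, red is furan, blue is control and black bars are means of 8. All 8 lines fall towards 18 h in every panel, and the groups do not overlap.

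Other structured RNAs were higher for 5 of 9 tested and lower for 0, with a median log2 fold change of 1.501. Rnu11 had 91.4, 98.5 and 128 CPM after 3 weeks, against 12.4, 17.6 and 23.1 CPM after 18 h, and 0.938 CPM in the median frozen library. Its groups were separated by a wide gap (2.56 ± 0.10, edgeR adjusted p = 7.53e-22). Rnu12, the U12 RNA that pairs with the branch point of the same minor introns, had 5.18, 8.67 and 18.3 CPM after 3 weeks and 0.946, 2.06 and 2.53 CPM after 18 h (2.32 ± 0.36, edgeR adjusted p = 2.11e-06), also without overlap. Vaultrc5, the RNA of the vault particle, rose by 1.55 ± 0.07, with 271, 328 and 423 CPM after 3 weeks and 92.3, 123 and 162 CPM after 18 h. The largest fold change of all named genes was that of Rprl2, annotated as an RNase P RNA-like gene, at 5.11 ± 0.73. It rests on 437 counts in the 3-week libraries and 28 counts in the libraries of 18 h pieces. With so few counts after 18 h, Rprl2 could pass the low-count filter through its 3-week libraries alone, which favours a rise. Rprl2 is also 92.1% identical to Rprl3 over 290 bases, so reads could be split between the copies.

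Residual ribosomal RNA moved in the same direction. Rn45s, the precursor of the ribosomal RNAs that the beads are meant to remove, took 2.77%, 3.80% and 5.16% of counts after 3 weeks (lowest, median and highest), against 0.867%, 1.18% and 1.49% after 18 h. The 3-week libraries were all higher (log2 fold change 1.58 ± 0.09, edgeR adjusted p = 4.74e-06). Lars2, which encodes the mitochondrial leucyl-tRNA synthetase, had 1698, 2452 and 2736 CPM after 3 weeks and 274, 352 and 449.8 CPM after 18 h (2.70 ± 0.09, edgeR adjusted p = 8.72e-09), with 55.6 CPM in the median frozen library. Counts are per gene, so they do not show which part of Lars2 the reads came from. Whether they came from the synthetase messenger RNA or from ribosomal RNA was not tested. Of the 8 genes with the highest mean level, Malat1, Rn45s and Scd1 were higher and Alb, Apob, Trf, C3 and Sepp1 lower.

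Long RNAs kept in the nucleus were higher for 8 of 15 tested and lower for 1, with a median of 0.53. Malat1, a nuclear speckle RNA, had 31580, 34720 and 42210 CPM after 3 weeks and 14570, 15130 and 16980 CPM after 18 h, without overlap (1.18 ± 0.03, edgeR adjusted p = 1.36e-14). Neat1, the scaffold of paraspeckles, had 1621, 2580 and 3255 CPM after 3 weeks and 868, 1274 and 1515 CPM after 18 h (1.01 ± 0.03, edgeR adjusted p = 3.21e-24). Kcnq1ot1, an imprinted antisense RNA, rose by 1.05 ± 0.04 and Xist, which coats the inactive X chromosome, by 0.50 ± 0.03, both without overlap. Airn, an imprinted antisense RNA of the Igf2r locus, was the exception and fell by 2.80 ± 0.86, with 0, 0.723 and 3.95 CPM after 3 weeks and 2.50, 4.54 and 5.69 CPM after 18 h. Its groups overlapped, and without the animal block its adjusted p was 0.123. Airn could also pass the low-count filter through its 18 h libraries alone, which favours a fall. By annotation class, 40 of 63 snoRNA genes were higher and 0 lower, 47 of 208 antisense genes were higher and 3 lower, 25 of 131 lincRNA genes were higher and 3 lower, and 2021 of 12728 protein-coding genes were higher and 2679 lower. Without a stated strand setting, reads of an antisense gene and its partner cannot be told apart.

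Few microRNA genes had enough counts to be tested. Of 1089 in the table, 573 had no count in any of the 16 libraries and 34 were tested. Of the 34, 5 were higher (14.7%, close to the 16.3% of all genes) and 0 lower (20% of all genes). Their median was 0.18. These libraries read the hairpin and its host transcript, not the mature strand. The hairpins of the pair of single microRNA genes with the smallest p, from RefSeq (GRCm38.p6), are given with their mature arms in capitals, since a count here can come from any part of them (Mir6516, chr11:117077348-117077457, plus strand, and Mir3064, chr11:106782693-106782759, minus strand).
Mir6516: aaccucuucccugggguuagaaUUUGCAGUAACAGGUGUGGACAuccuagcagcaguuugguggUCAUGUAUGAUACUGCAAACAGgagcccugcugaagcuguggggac
Mir3064: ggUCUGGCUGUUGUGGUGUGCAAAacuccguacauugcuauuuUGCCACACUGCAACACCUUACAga
Mir6516 had 29.5, 34.6 and 50.2 CPM after 3 weeks and 13.1, 15.96 and 22.1 CPM after 18 h, without overlap (1.10 ± 0.13, edgeR adjusted p = 1.17e-08), and in the annotation it overlaps a small Cajal body RNA gene. Mir3064 rose by 1.24 ± 0.28 and lies in Ddx5, an RNA helicase gene that itself rose by 0.80 ± 0.04 with 508 CPM after 3 weeks and 291 CPM after 18 h. Mir17hg, the host of the miR-17 cluster, rose by 1.29 ± 0.26 and Mir3068 by 1.66 ± 0.60, both with overlap. The call of Mir3068 was lost without animal 2, 6 or 41 (adjusted p of 0.0731 to 0.0841).

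The messenger RNAs of secreted liver proteins fell together. Of 37 abundant secreted proteins, 36 were lower and 1 higher, with a median log2 fold change of -0.73. Their summed share of counts was 12.7%, 14.5% and 15.2% after 3 weeks (lowest, median and highest) and 19.9%, 21.6% and 22.4% after 18 h, lower in 8 of 8 livers (exact sign-flip permutation test, two-sided, p = 0.00781). Alb, serum albumin and the most abundant messenger RNA of the liver, had 48720, 57260 and 63410 CPM after 3 weeks, against 83250, 89480 and 103800 CPM after 18 h and a frozen median of 151000 CPM. The groups of Alb did not overlap (-0.67 ± 0.05, edgeR adjusted p = 8.66e-06). Apoe, a lipoprotein receptor ligand, had 2435, 2772 and 3308 CPM after 3 weeks and 4847, 5749 and 6584 CPM after 18 h (-1.01 ± 0.03, edgeR adjusted p = 5.10e-25). Trf, the iron carrier transferrin, had 7652, 9946 and 11520 CPM after 3 weeks and 14770, 17360 and 19890 CPM after 18 h (-0.80 ± 0.02, edgeR adjusted p = 4.98e-24), and for both genes all 8 libraries of 3-week pieces lay below the 18 h range. Itih4 and Ahsg, both secreted glycoproteins, fell by 2.00-fold and 1.58-fold, and complement component C3 fell by 1.97-fold. Apob, the long messenger RNA of the lipoprotein backbone, and Sepp1, a selenium carrier, fell less, with log2 fold changes of -0.32 ± 0.02 and -0.34 ± 0.02. Apom, a carrier of sphingosine phosphate, had 64.2, 77.4 and 89.9 CPM after 3 weeks and 160, 169 and 181 CPM after 18 h (-1.13 ± 0.07, edgeR adjusted p = 1.13e-16). With the GC content and length offsets, 29 of the 37 were lower and 5 higher with a median of -0.36, Apoe had a log2 fold change of -0.34 and Ahsg one of -0.18.

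Lists of hepatocyte metabolism were counted beside the 20% of all genes that were lower. Periportal markers were lower for 16 of 23 and higher for 1, pericentral markers lower for 14 of 22 and higher for 3, and urea cycle enzymes lower for 6 of 8 and higher for 1. With the offsets for GC content and length, 11 periportal genes were lower and 3 higher (median -0.12), 6 pericentral genes lower and 5 higher (median -0.07), and 4 urea cycle genes lower and 1 higher (median -0.16). Of all 12728 protein-coding genes, 1211 were lower and 2724 higher with the offsets. Asl, which splits argininosuccinate, had 86.3, 99.4 and 119 CPM after 3 weeks and 205, 234 and 311 CPM after 18 h, without overlap (-1.25 ± 0.06, edgeR adjusted p = 9.24e-20). Cps1, which catalyses the first step of the urea cycle, had 4786, 5189 and 6562 CPM after 3 weeks and 6601, 7026 and 8747 CPM after 18 h (-0.44 ± 0.03, edgeR adjusted p = 8.70e-17), and its highest 3-week library lay just below its lowest library of an 18 h piece. Ass1 and Otc fell by 1.73-fold and 1.38-fold with overlap. Gm5424, a predicted gene, fell by 2.33-fold, and its transcript is 99.5% identical to Ass1 over 1240 bases, so counts of the 2 genes are uncertain. Fbp1, a gluconeogenic phosphatase, had 288, 355 and 399.7 CPM after 3 weeks and 602, 774 and 869.7 CPM after 18 h (-1.10 ± 0.04, edgeR adjusted p = 6.68e-22), and of 20 genes of glycolysis and gluconeogenesis 11 were lower and 2 higher, against 6 lower and 3 higher with the offsets. Hpd, an enzyme of tyrosine breakdown, had the largest fall among abundant named genes, with 539, 723 and 1091 CPM after 3 weeks and 1469, 1807 and 2463 CPM after 18 h (-1.29 ± 0.04, edgeR adjusted p = 7.74e-23).

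Cytochrome P450 genes were lower for 36 of 67 and higher for 6, with a median of -0.28. Cyp2e1, the P450 that oxidises furan, had 2834, 4234 and 6008 CPM after 3 weeks and 5014, 6871 and 8908 CPM after 18 h. The ranges overlapped, yet every liver had less in its 3-week piece (-0.64 ± 0.03, edgeR adjusted p = 6.31e-19). Cyp2d26 and Cyp27a1, a bile acid enzyme, fell by 1.798-fold and 1.90-fold without overlap. Bile acid synthesis and transport genes were lower for 17 of 24 and higher for 3, and PPAR alpha targets, which serve fatty acid oxidation, lower for 17 of 29 and higher for 3. Fabp1, the liver fatty acid carrier, had 1054, 1287 and 1519 CPM after 3 weeks and 2314, 2546 and 3345 CPM after 18 h, and 6465 CPM in the median frozen library. The groups of Fabp1 did not overlap (-1.06 ± 0.03, edgeR adjusted p = 5.10e-25), and Acaa2, a thiolase of mitochondrial oxidation, fell by 1.96-fold. Nr1i3, the xenobiotic receptor CAR, had 44.1, 90.8 and 148 CPM after 3 weeks and 143, 206 and 324 CPM after 18 h (-1.24 ± 0.07, edgeR adjusted p = 4.79e-16), with overlap between livers. Acute phase proteins were lower for 15 of 24 and higher for 1. With the offsets, the counts lower and higher were 23 and 11 of 66 P450 genes, 14 and 2 of 24 bile acid genes, and 12 and 8 of 29 PPAR alpha targets.

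Lipid synthesis genes went both ways. Of 22 fatty acid synthesis genes, 13 were lower and 4 higher, against 5 lower and 8 higher with the offsets (median -0.04). Fasn, fatty acid synthase, fell by 1.69-fold and Fads2, a desaturase, by 1.71-fold, both with overlap between groups. Elovl5, an elongase, had 1172, 1590 and 1862 CPM after 3 weeks and 790.4, 1023 and 1119 CPM after 18 h, higher without overlap (0.65 ± 0.03, edgeR adjusted p = 2.19e-18). Scd1, the main liver desaturase, rose by 0.33 ± 0.02 (adjusted p = 3.56e-15), with 6035, 9298 and 13300 CPM after 3 weeks and 4872, 7181 and 11240 CPM after 18 h. Its range between livers was wider than the change, and without the animal block the adjusted p was 0.282. Cholesterol biosynthesis genes were lower for 10 of 24 and higher for 5, and their median of -0.06 became 0.02 with total-count scaling. With the offsets 4 were lower and 8 higher (median 0.06). Of this list, Hsd17b7 and Msmo1 rose by 1.49-fold and 1.35-fold. Major urinary protein genes, pheromone carriers that share much of their sequence, were higher for 4 of 14 and lower for 1. Mup10 was lower (-1.15 ± 0.05) and Mup5 and Mup16 rose by 1.62 ± 0.30 and 1.00 ± 0.11, though without the animal block the adjusted p of Mup16 was 0.143, and counts within the family can be split between copies.

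**Figure D2:**
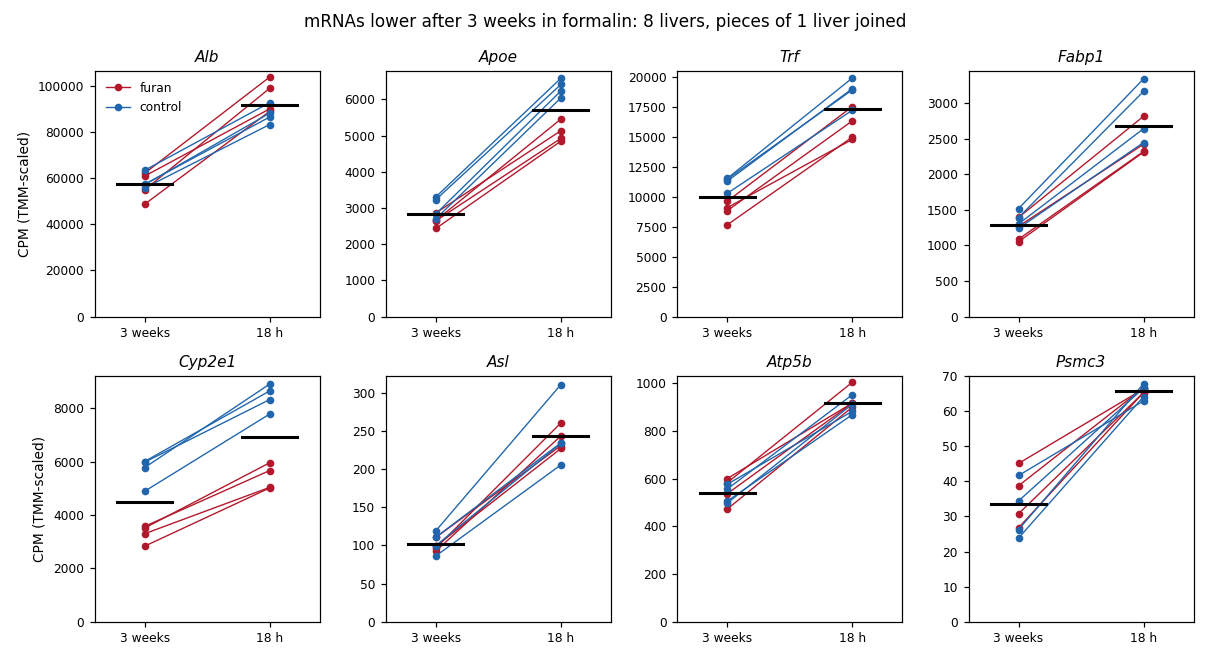
CPM (linear axes from 0, TMM-scaled) of 8 messenger RNAs in pieces kept 3 weeks and 18 h in formalin. Points are libraries, lines join the 2 pieces of a liver, red is furan, blue is control and black bars are means of 8. All 8 lines rise towards 18 h in every panel, and only the groups of Cyp2e1 overlap.

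Subunits of several large complexes were lower more often than all genes. Nuclear-encoded respiratory chain subunits were lower for 41 of 75 and higher for 2, with a median of -0.42. Atp5b, the catalytic beta subunit of ATP synthase, had 472, 547 and 599.9 CPM after 3 weeks and 868, 914 and 1003 CPM after 18 h, without overlap (-0.77 ± 0.04, edgeR adjusted p = 1.99e-18), and Uqcrc1, a complex III core protein, fell by 2.08-fold. Proteasome subunits were lower for 27 of 38 and higher for 0, with a median of -0.62. Psmc3, an ATPase of the proteasome's regulatory cap, had 23.9, 32.6 and 45.1 CPM after 3 weeks and 62.9, 65.8 and 67.8 CPM after 18 h (-1.003 ± 0.11, edgeR adjusted p = 7.47e-10), and Psma7, a core subunit, fell by 1.78-fold. Mitochondrial ribosomal proteins were lower for 24 of 75 and higher for 2, and Mrpl37 and Mrpl28 fell by 2.06-fold and 2.29-fold. Of 64 cytosolic ribosomal proteins 8 were higher, 9 lower and 47 not called, beside the 16.3% of all genes that were higher and the 20% that were lower. Among them Rpl23 rose by 0.83 ± 0.10, and Rpl8 and Rplp0 had log2 fold changes of -0.62 ± 0.08 and -0.75 ± 0.10. With the offsets, the respiratory chain list had 15 lower and 14 higher and a median of 0.08, the proteasome list 12 lower and 1 higher, the mitochondrial ribosome list 13 lower and 8 higher, and the cytosolic ribosome list 1 lower and 18 higher. All 12728 protein-coding genes had 1211 lower and 2724 higher with the offsets, and a median of 0.07. Under the same offsets Rpl8 changed sign (0.08) and the call of Rplp0 was lost (adjusted p = 0.0687). Many ribosomal protein genes have processed pseudogenes, so their counts depend on how reads with several matches were handled, which is not given in the sources used here.

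Genes of RNA processing and early response were higher more often than the 16.3% of all genes. Splicing factors of the SR, hnRNP and CLK families were higher for 16 of 30 and lower for 3, with a median of 0.29. Srsf1, an SR protein that binds exonic enhancers, had 242, 280.3 and 311 CPM after 3 weeks and 147, 157 and 172 CPM after 18 h, without overlap (0.82 ± 0.05, edgeR adjusted p = 3.84e-16). Srsf10 and Srsf6 rose by 2.18-fold and 1.72-fold, and with the offsets the list had 18 higher and 2 lower. Immediate early genes, which cells switch on within minutes of a stimulus, were higher for 10 of 21 and lower for 0, with a median of 0.44. Jund, an AP-1 subunit, had 23.7, 34.9 and 52.98 CPM after 3 weeks and 7.56, 9.16 and 10.7 CPM after 18 h, and its groups did not overlap (1.90 ± 0.15, edgeR adjusted p = 8.05e-13). Klf6, a zinc finger transcription factor, and Dusp6, a phosphatase that restrains ERK, rose by 1.96-fold and 1.63-fold with overlap. With the offsets, 13 of 21 immediate early genes were higher and 0 lower. The summed level of the list was 339, 506 and 732 CPM after 3 weeks, against 250, 313 and 464 CPM after 18 h.

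Other signalling lists were mixed. Circadian clock genes were higher for 5 of 19 and lower for 5, and with the offsets higher for 8 and lower for 1. Nr1d2, a clock repressor, had 316, 348 and 374 CPM after 3 weeks and 179.6, 193 and 233 CPM after 18 h, without overlap (0.80 ± 0.05, edgeR adjusted p = 1.68e-15), and its partner Nr1d1 moved the other way, with 58.0, 93.4 and 129.5 CPM after 3 weeks and 119.7, 152 and 176 CPM after 18 h (-0.68 ± 0.07, edgeR adjusted p = 1.24e-10). With the offsets the value of Nr1d1 was -0.20 (edgeR adjusted p = 0.0239). Rora, the activator that competes with both, rose by 1.47-fold. The p53 targets were higher for 7 of 28 and lower for 6, and with the offsets higher for 7 and lower for 2. Trp53inp1, a p53-induced nuclear protein, rose by 0.91 ± 0.06 and Dcxr, a carbonyl reductase, fell by 2.18-fold. NRF2 targets were lower for 12 of 27 and higher for 3, and Tkt, an enzyme of the pentose phosphate pathway, and Gstp1, a glutathione transferase, fell by 2.08-fold and 1.92-fold. With the offsets 7 NRF2 targets were lower and 5 higher (median 0.01), and the log2 fold change of Gstp1 was -0.30 (edgeR adjusted p = 0.0469). Heat shock proteins were lower for 9 of 19 and higher for 2 (with the offsets 6 lower and 4 higher), with Hsp90ab1 at -0.55 ± 0.05 and the co-chaperone Dnaja1 at 0.67 ± 0.08. Hypoxia genes were called for 3 of 19: 2 were higher, among them Bnip3 (0.98 ± 0.07), a mitophagy receptor, and 1 was lower, the lactate dehydrogenase gene Ldha (-0.80 ± 0.08). With the offsets 7 hypoxia genes were higher and 1 lower. Zinc finger proteins of the Zfp series were higher for 45 of 316 (14.2%) and lower for 19 (6.01%). The shares over all genes were 16.3% and 20%, so falls were fewer and rises close to the background. Zfp871 and Zfp36l1 rose by 2.09-fold and 1.85-fold without overlap.

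Genes often used to scale measurements between samples were called in both directions. Of 20 such reference genes, 6 were higher and 7 lower after 3 weeks. Ywhaz, a 14-3-3 protein, had 101, 111 and 169 CPM after 3 weeks and 50.9, 57.4 and 71.2 CPM after 18 h, without overlap (0.99 ± 0.07, edgeR adjusted p = 7.03e-14). Actb, cytoplasmic actin, rose by 0.41 ± 0.04 with overlap. Eef2, a translation elongation factor, had 472, 549.5 and 642 CPM after 3 weeks and 828, 984 and 1114 CPM after 18 h, without overlap, and was lower by a log2 fold change of -0.81 ± 0.06. With the offsets, 7 of the 20 were higher and 4 lower.

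**Figure D3:**
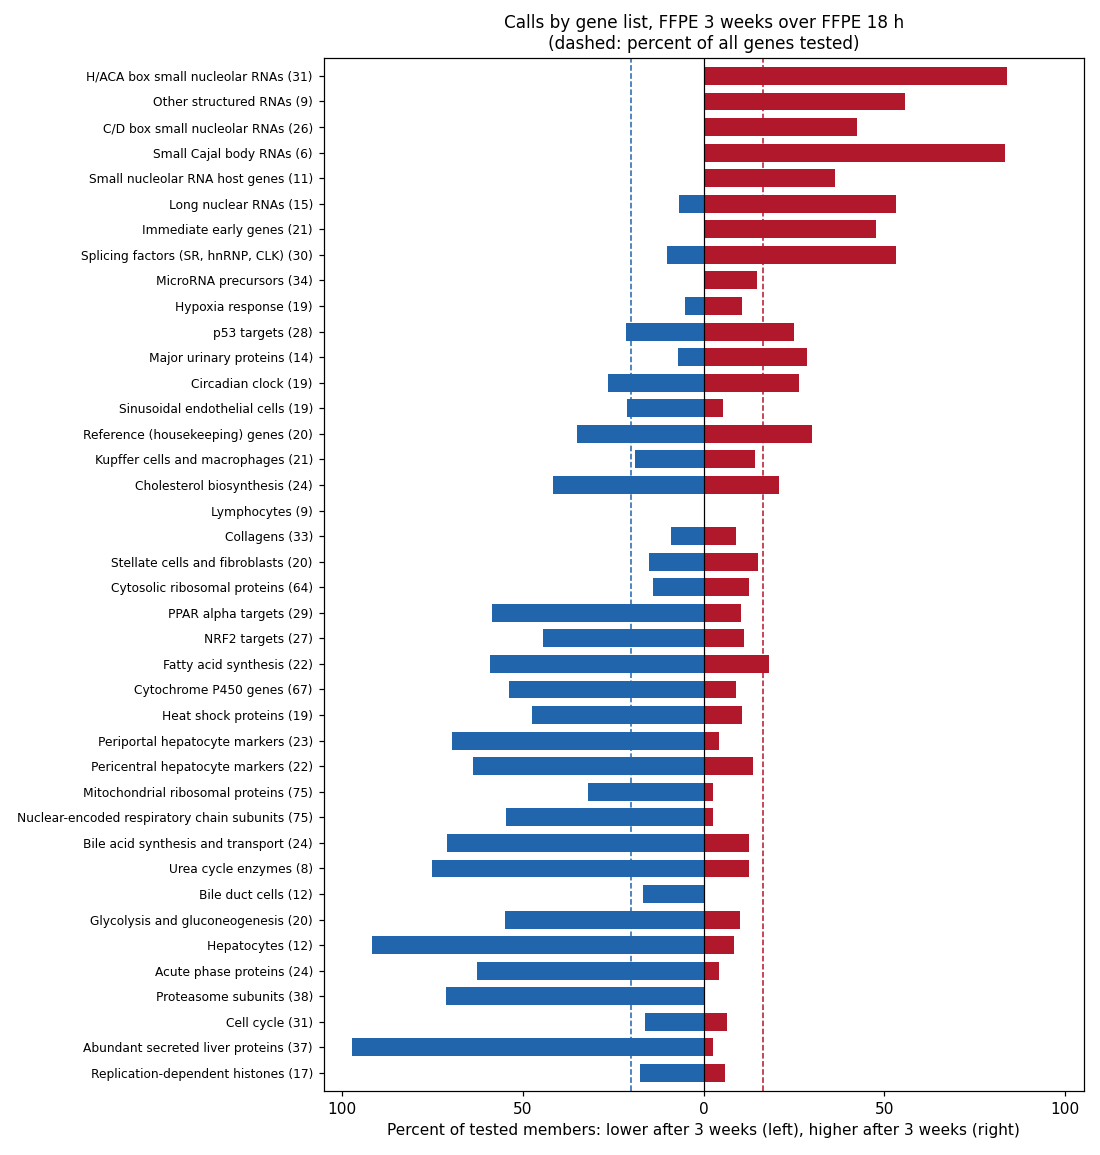
Percent of the tested members of 40 gene lists (number tested in brackets) that were called higher (red, right) or lower (blue, left) in 3-week pieces relative to 18 h pieces, sorted by median log2 fold change. Dashed lines give the same percentages over all 13515 genes, 16.3% higher and 20% lower, which the small nucleolar RNA and secreted protein bars exceed.

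The calls varied with transcript composition. Protein-coding genes were placed in 10 groups of equal size by GC content, and the median log2 fold change was lower in each group than in the one before it, with 0.25 in the lowest (32.6% to 41.8% GC) and -0.46 in the highest (58.0% to 68.7%). In the lowest GC group 41.6% of genes were higher and 5.73% lower, and in the highest group 2.59% were higher and 29.1% lower. Across 12728 genes, which are not independent and share the same 16 libraries, Spearman's rho between GC content and log2 fold change was -0.395, and over the 4553 genes with a mean log2 CPM of at least 5 it was -0.516. Within each liver, the median log2 difference of the lowest GC group exceeded that of the highest by 0.643 ± 0.142 (SD, n = 8), with 0.375 in the liver with the least and 0.819 in the liver with the most. It was positive in 8 of 8 livers (exact sign-flip permutation test, two-sided, p = 0.00781). A pair of coding stretches, from a gene of the highest and a gene of the lowest GC group, is shown with G and C in capitals. Each is the first 120-base coding window whose GC content is within 1 percentage point of that of its whole transcript (GENCODE M21, minus strand of chromosomes 7 and 17). Apoe is 59.5% GC and fell by 1.01 on the log2 scale, and Zfp871, a zinc finger gene, is 40.0% GC and had 759, 832 and 898 CPM after 3 weeks, against 351, 402 and 438 CPM after 18 h (1.06 ± 0.04, edgeR adjusted p = 7.74e-23). With the GC content and length offsets, the log2 fold changes were -0.34 for Apoe and 0.83 for Zfp871, and both stayed called.
Apoe: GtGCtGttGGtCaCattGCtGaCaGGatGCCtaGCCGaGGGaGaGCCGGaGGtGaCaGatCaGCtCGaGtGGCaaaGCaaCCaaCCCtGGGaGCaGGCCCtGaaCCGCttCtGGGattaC
Zfp871: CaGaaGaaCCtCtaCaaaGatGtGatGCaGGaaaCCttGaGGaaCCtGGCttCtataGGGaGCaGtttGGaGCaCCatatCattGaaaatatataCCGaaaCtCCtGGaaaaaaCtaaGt
Single genes departed from this trend in both directions. Jund is 67.1% GC and rose, and Fabp1 and Mup10, at 45.8% and 41.6% GC, fell.

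Fold changes varied with transcript length as well. The medians rose with length up to group 9 of 10 (5210 to 6754 bases), at 0.04, but not beyond it. The shortest group of transcripts (371 to 1362 bases) had a median log2 fold change of -0.42 and the longest (6754 bases and over) one of 0.00, and the longest exceeded the shortest within livers by 0.366 ± 0.0946 (SD, n = 8; 8 of 8 livers, exact sign-flip permutation test, two-sided, p = 0.00781). GC content and length are related across genes (rho = -0.243). Genes were therefore split into 5 classes by GC content, and each of these into 5 by length. In the lowest GC class the median was -0.04 for the shortest genes and 0.26 for the longest, and in the highest GC class -0.57 and -0.34. The medians thus differed with length within both end classes of GC content. The length classes differed between GC classes. The shortest class ran from 449 to 2413 bases at the lowest GC and from 408 to 1530 at the highest. GC content was therefore not compared at equal length. The count-weighted mean GC content of protein-coding transcripts was 47.9 ± 0.123% after 3 weeks and 48.6 ± 0.118% after 18 h (SD, n = 8 each), lower after 3 weeks in 8 of 8 livers. After the offsets, 3935 of 12728 genes (30.9%) were called, against 4700 (36.9%) of the same genes without them. Of the 2021 higher calls 1709 were still higher, of the 2679 lower calls 1075 were still lower, and 73 calls had the opposite sign.

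**Figure D4:**
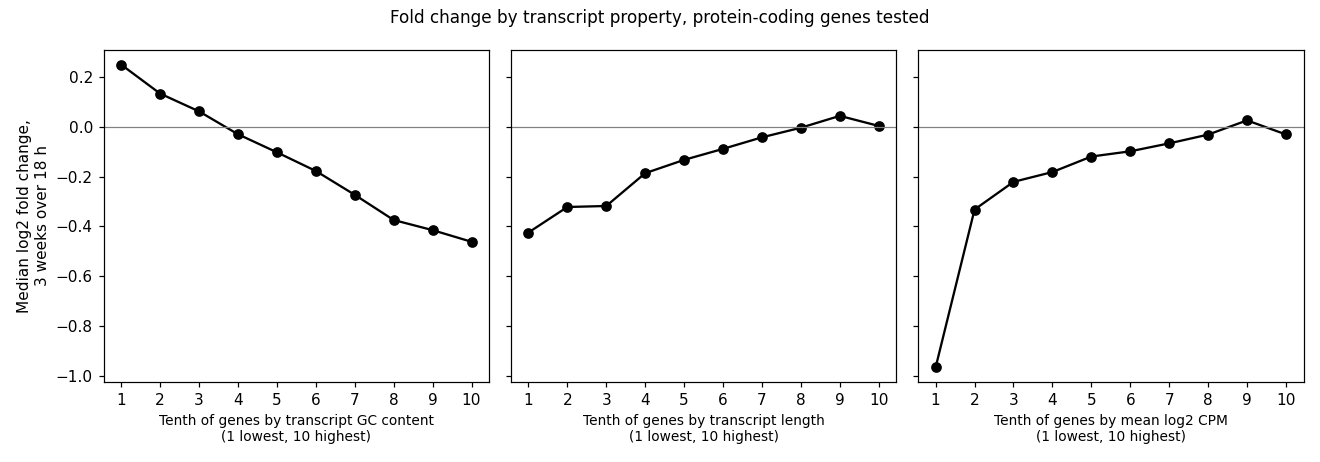
Median log2 fold change, 3 weeks over 18 h, of 12728 protein-coding genes in 10 groups of equal size by transcript GC content, transcript length and mean log2 CPM, each numbered 1 (lowest) to 10 (highest). Points are group medians, and the grey line is 0. The medians fall with GC content by steps to -0.46 and lie lowest for the least abundant genes, at -0.97. Scarce genes could pass the low-count filter through 18 h libraries alone, which can lower that last median.

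The largest falls were those of scarce genes, several of which had no count in some 3-week libraries. Such a gene could pass the low-count filter through its 18 h libraries alone, which favours falls among the scarce genes tested. Hist2h2bb, a replication-dependent histone, had 0, 0 and 3.11 CPM after 3 weeks and 2.75, 3.72 and 5.90 CPM after 18 h, and 7.15 CPM in the median frozen library. Its call (-3.83 ± 1.06, edgeR adjusted p = 0.00434) was lost without the animal block (adjusted p = 0.0519). Histones of this kind, whose messenger RNAs end in a stem-loop without a poly(A) tail, were lower for 3 of 17 and higher for 1, with Hist1h1e at -1.20 ± 0.19, Hist1h1c at -1.24 ± 0.30 and Hist2h2be at 1.13 ± 0.30. 4933411K16Rik had 0.971, 3.77 and 13.0 CPM after 3 weeks and 17.1, 25.6 and 38.3 CPM after 18 h, the clearest of these falls and without overlap (-2.74 ± 0.24, edgeR adjusted p = 8.34e-11). Zfp109 (-2.82 ± 0.63), Igflr1 (-3.62 ± 1.02) and Neil1 (-2.38 ± 0.74), a DNA glycosylase gene, also did not overlap. Eid3 (-2.36 ± 0.50), Thyn1 (-2.996 ± 0.96), 4632427E13Rik (-3.32 ± 0.88), Fhit (-2.46 ± 0.87), Ddx59 (-2.30 ± 0.77) and Zbtb12 (-2.38 ± 0.87) overlapped. Neil1, Fhit, Ddx59 and Zbtb12 lost their calls without the animals of the 2 shallowest libraries (adjusted p of 0.0526 to 0.128), and Thyn1, Ddx59 and Zbtb12 without the animal block (0.0759 to 0.164). Leaving out animal 4, 41 or 44 ended the call of Fhit, animal 4, 6, 41 or 44 that of Zbtb12 and animal 4 that of Ddx59, and the offsets ended those of Fhit, Zbtb12, Neil1 and Hist1h1c.

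Scarce genes were measured less completely in the 3-week libraries even at equal depth. After thinning every library to 5560002 counts, a 3-week library held 13656 ± 258 genes with a count and an 18 h library 15534 ± 163 (SD, n = 8 each), fewer in 8 of 8 livers (exact sign-flip permutation test, two-sided, p = 0.00781). Genes with 1 to 9 counts numbered 1552 ± 207 after 3 weeks and 3582 ± 104 after 18 h. Genes with at least 10 counts numbered 12103 ± 138 after 3 weeks and 11952 ± 106 after 18 h (exact sign-flip permutation test, p = 0.0156), so the deficit lay among genes with few counts. In the least abundant of 10 groups of tested genes, 36.9 ± 5.39% had no count in a 3-week library and 3 ± 1.27% in a library of an 18 h piece. In the next group these shares were 13.4 ± 3.44% after 3 weeks and 0.222 ± 0.168% after 18 h, and in the third 2.5 ± 1.12% after 3 weeks and 0.0185 ± 0.0342% after 18 h. A scarce gene could pass the low-count filter through its 18 h libraries alone. Part of the difference in these groups of tested genes can therefore follow from the filter.

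**Figure D5:**
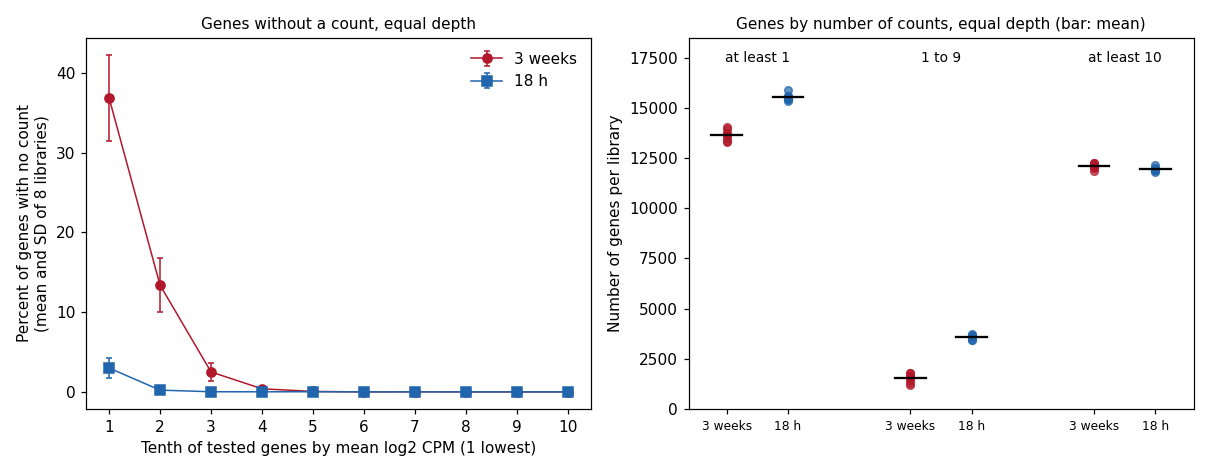
Left, percent of tested genes with no count (linear axis) in each of 10 abundance groups, mean and SD of 8 libraries thinned to equal depth, 3 weeks in red and 18 h in blue. Tested genes could pass the low-count filter through 18 h libraries alone. Right, genes per library with at least 1, with 1 to 9 and with at least 10 counts, points being libraries and bars means. The 3-week libraries hold fewer genes with 1 to 9 counts, with a mean of 1552 against 3582 in 18 h libraries.

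The replicate spread was also wider after 3 weeks. The biological coefficient of variation between animals of a treatment, a fitted SD on the scale of the mean, was 0.506 after 3 weeks and 0.141 after 18 h. At equal depth it was 0.441 after 3 weeks and 0.112 after 18 h, and at the abundance of the top 2000 genes 0.149 after 3 weeks and 0.0950 after 18 h. The frozen libraries at full depth gave 0.210 over all genes and 0.162 for the top 2000.

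Labels and cell types were checked on marker genes. Of 12 hepatocyte markers 12 were tested, 11 lower and 1 higher, and their summed level was 71970 to 90740 CPM after 3 weeks and 123200 to 140200 CPM after 18 h, far above every other cell type. In bulk tissue fewer cells of a type and less RNA per cell cannot be told apart. Of 19 sinusoidal endothelial genes 4 were lower and 1 higher, of 21 Kupffer cell and macrophage genes 4 lower and 3 higher, and of 20 stellate cell and fibroblast genes 3 lower and 3 higher. The shares lower, 21.1%, 19% and 15%, were near or below the 20% of all genes. The shares higher, 5.26%, 14.3% and 15%, were below the 16.3% of all genes. The list medians were -0.04, -0.05 and -0.16, the first 2 of which turned to 0.04 and 0.02 with total-count scaling. Stab1, a scavenger receptor of sinusoids, had 52.8, 83.2 and 110.4 CPM after 3 weeks and 94.7, 108 and 134 CPM after 18 h (-0.45 ± 0.08), and the endothelial genes Eng and Dnase1l3 had log2 fold changes of -0.62 ± 0.08 and 0.32 ± 0.06. Clec4f, the Kupffer cell lectin, had 48.9, 54.5 and 103 CPM after 3 weeks and 66.5, 74.9 and 111 CPM after 18 h (-0.39 ± 0.08), and Lyz2 and Fcer1g had -0.68 ± 0.16 and 0.97 ± 0.23, though Lyz2 was not called without the animal block (adjusted p = 0.139). Of the stellate list Rgs5 rose by 0.74 ± 0.10 and Ecm1 fell by 0.66 ± 0.08. With the offsets, 6 hepatocyte markers were lower and 3 higher (median -0.12), while 6 endothelial genes (median 0.18) and 8 macrophage genes (median 0.37) were higher and 0 of either list lower. Over all 12728 protein-coding genes the offsets gave 2724 higher and 1211 lower, with a median of 0.07. Under the same offsets the falls of Stab1, Eng, Clec4f, Lyz2 and Ecm1 were not called (adjusted p of 0.0655 to 0.779). Bile duct markers were lower for 2 of 12 tested (16.7%, beside 20% of all genes) and higher for 0. One of the 2, Krt19 (-3.27 ± 1.27), rests on 34 counts in the 3-week libraries and lost its call without any 1 of animals 3, 4, 6, 41, 42 and 44.

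Marker genes of blood and of neighbouring organs were counted as well. Of 10 red cell genes all 6 haemoglobin genes in the table (Hba-a1, Hba-a2, Hbb-b1, Hbb-b2, Hbb-bt and Hbb-bs) had no count in the 16 libraries, the list summed to 12.5 to 33.2 CPM after 3 weeks and 23.6 to 34.0 CPM after 18 h, and Alas2, the only one tested, had a log2 fold change of -0.48 ± 0.15. How reads with several matches were counted is not given in the sources used here, so zeros in this near-identical family do not show how much blood a library held. Of 12 pancreatic genes, Prss1, Prss2, Cela3b, Amy2a5 and Try4 had no count, and the sum was 14.6 to 20.8 CPM after 3 weeks and 18.4 to 32.0 CPM after 18 h. Almost all of it was Cela1 (-0.41 ± 0.15), whose call was lost with total-count scaling (adjusted p = 0.0832), at equal depth (0.0712) and without animal 3, 42 or 43 (0.0635 to 0.0888). Neutrophil genes summed to 1.85 to 9.85 CPM after 3 weeks and 2.46 to 5.43 CPM after 18 h, with Mpo and Elane at 0. Lymphocyte genes summed to 35.4 to 74.9 CPM after 3 weeks and 33.2 to 60.4 CPM after 18 h, and 0 of 9 tested were called. Adipocyte genes were dominated by Car3, which hepatocytes also express (-0.26 ± 0.03). The calls of Alas2 and Car3 were lost with the offsets (adjusted p = 0.882 and 0.861), and Cela1 changed sign (0.18). The part of these markers in the other results was not tested.

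The design allows the fixation difference to be set out for each treatment. In the furan livers alone 3231 of 13707 genes (23.6%) were called and in the control livers alone 3261 of 13529 (24.1%). Among genes tested in both, 2273 were called in both, which is 70.4% of the furan calls and 69.7% of the control calls, and 2272 of them had the same direction. Snora70 had log2 fold changes of 2.43 in furan livers and 2.27 in control livers, Apoe -0.96 in furan livers and -1.07 in control livers, and Jund 1.96 in furan livers and 1.81 in control livers. A test of the difference between treatments (edgeR interaction term) called 0 of 13515 genes (0%), with 752 at an unadjusted p under 0.05 and a smallest adjusted p of 0.323. DESeq2 called 19 genes for the same term, and edgeR without the low-count filter 18. The 5 genes with the smallest p are given as values. Vps13d, a lipid transfer protein gene, had -0.35 in furan livers and 0.04 in control livers, and Abcb11, the bile salt export pump, -0.59 in furan livers and -0.31 in control livers. Ninj1, a membrane rupture protein gene, had 0.17 in furan livers and -0.65 in control livers, Myh9, a nonmuscle myosin, -0.19 in furan livers and -0.60 in control livers, and Abcc6, a transporter, -0.41 in furan livers and -0.87 in control livers. The excess of the lowest over the highest GC group was 0.558 ± 0.124 in furan livers and 0.727 ± 0.113 in control livers (SD, n = 4 each; exact permutation test, two-sided, p = 0.114). The excess of the longest over the shortest genes was 0.286 ± 0.0479 in furan livers and 0.447 ± 0.0376 in control livers, with no overlap (exact permutation test, two-sided, p = 0.0286, the smallest that 4 against 4 allows, and 0.0571 after adjustment over the 2 gradients).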

How the data were processed

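The deposited table holds the authors' whole-number read counts per gene symbol, 24015 genes in 24 libraries, not normalized. Per the labels' protocols, libraries were made with a TruSeq total RNA kit after bead depletion of ribosomal RNA. Per the submitters' processing notes CASAVA 1.8.2, STAR 2.3.0, featureCounts 1.4.4 and genome build mm9 were used. Strand and multimapping settings are not given in the sources used here. From these counts, edgeR 4.0.16 (R 4.3.3, limma 3.58.1) fitted a quasi-likelihood model with animal and fixation to the 16 FFPE libraries after TMM scaling and edgeR's filter on low counts (minimum count 10), with Benjamini-Hochberg adjustment. The furan term was added as an interaction. The animal block rests on the labels, which divide each liver into pieces. Deviations from the group means correlated between pieces of a liver by 0.0841 to 0.287 over 8879 genes, and 8 of 8 libraries of 3-week pieces correlated best with their own liver. Totals were 5.56 to 11 M counts after 3 weeks and 22.9 to 28.1 M after 18 h, and libraries were also thinned to 5560002 counts (seed 1). GC content, length and sequences come from GENCODE M21 (GRCm38) by symbol, with 23621 of 24015 genes matched, 930 by a synonym. No coordinates were converted from mm9. Offsets were fitted with mgcv 1.9.3. Alternatives were DESeq2 1.42.0 and its size factors, total-count scaling, 2 other low-count filters, a 1.5-fold threshold, no animal block, equal depth, offsets and each animal left out. Genes were named by rank: the 12 largest rises and falls (mean log2 CPM at least 1, 8 of 8 livers), the 6 largest at mean log2 CPM of at least 6, up to 4 per list by p, 5 for the interaction and the 8 most abundant, and not all are printed. A few genes are not reported here. Host genes, paralogs and motif matches were added for the RNAs named. The members, lists and tests were chosen with earlier results of these data known. Scripts were tested on simulated counts.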

Additional observations from a re-analysis of the deposited data

Results flagged for a closer look

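Of 194 groups of 4 or 8 values examined, 9 (4.64%) had a lowest or highest value far from the others by Dixon's criterion, which chance gives in about 1 in 20. Among the structured RNAs, the within-liver log2 difference of Snora31 was 2.13 in control animal 4, against 2.7 to 3.01 in the other livers, that of Snora70 was 1.79 in control animal 6, against 2.22 to 2.55, and that of Snord49b was 0.556 in furan animal 41, against 1.89 to 3.07. In furan animal 42, Snhg3 had a log2 difference of -1.26, with 3.28 CPM after 3 weeks and 8.01 CPM after 18 h, whereas the other livers had 0.607 to 1.96. Kcnq1ot1 had 0.766 in the same animal, against 1.02 to 1.2. Fbp1 had -0.828 in furan animal 43, against -1.24 to -1.06. The 18 h library of furan animal 41 held 28100000 counts and the other furan libraries of 18 h pieces 23900000 to 24100000. The 18 h library of control animal 3 held 25300000 counts and the other control libraries 22900000 to 23300000. Secreted proteins took 19.9% of counts in the 18 h library of control animal 6 and 21.5% to 21.7% in the other control libraries. The excess of the longest over the shortest genes differed between furan and control livers by -0.1604 (exact permutation test, two-sided, p = 0.0286, the smallest that 4 against 4 allows).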

How the results depend on the processing

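The 4911 calls became 4876 with DESeq2 size factors, 4975 without a low-count filter, 4760 at equal depth and 5587 with DESeq2. Without the animal block, that is without the pairing, they became 4514. With a test against a 1.5-fold change they became 550 (furan livers 334, control livers 333). Leaving out 1 animal gave 4469 to 4729 calls in all livers, 2456 to 2650 in furan livers and 2374 to 2874 in control livers. Leaving out both animals of the 2 shallowest libraries, a choice made after seeing the data, gave 4373. The 0 calls for the difference between treatments became 18 without a low-count filter, 19 with DESeq2 and 0 to 2 with 1 animal left out. Under the GC content and length offsets Ninj1 (0.46), Rpl8 (0.079) and Cela1 (0.18) changed sign. At equal depth the difference in genes with at least 10 counts was 151.38 in place of -1458.9, and that in genes with exactly 1 count was -632 in place of -67.75. The difference in the share of cytosolic ribosomal proteins, 0.0018438 percentage points, was -0.0010033 without animal 42 and at most 0.0031993 with 1 animal left out. The coefficient of variation was 0.4409 after 3 weeks and 0.1124 after 18 h at equal depth, and 0.4965 to 0.5162 after 3 weeks and 0.1369 to 0.1466 after 18 h with 1 animal left out. The cause of these changes was not tested. Totals of 5.56 to 11 M counts limit what can be seen for scarce genes after 3 weeks. At equal depth a 3-week library still held fewer genes with a count, on average 13656 against 15534 after 18 h.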

Other observations

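Of all genes tested 16.3% were higher and 20% lower after 3 weeks. Of the remaining gene lists, collagens were higher for 3 of 33 and lower for 3, solute carriers higher for 39 of 238 and lower for 50, and RIKEN and predicted transcripts higher for 141 of 847 and lower for 56. With the offsets for GC content and length, 5 collagens were higher and 1 lower, and 55 solute carriers higher and 20 lower. Of all 12728 protein-coding genes, 2724 were higher and 1211 lower with the offsets. Of the 363 RIKEN and predicted transcripts that are protein-coding, 48 were higher and 47 lower, against 65 higher and 23 lower with the offsets. Cell cycle genes were higher for 2 of 31 and lower for 5, with a median log2 fold change of -0.64, and with the offsets higher for 2 and lower for 2. Olfactory receptors, which liver is not known to use, were higher for 1 of 5 tested and lower for 0, and vomeronasal receptors were called for 0 of 3. Both receptor families together took 0.00448 ± 0.00112% of counts after 3 weeks and 0.00279 ± 0.000371% after 18 h (SD, n = 8 each), higher in 7 of 8 livers (exact sign-flip permutation test, two-sided, p = 0.0156).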
